A study of Mus musculus with 12 samples.

Results

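A set of 9 genes for haematopoietic cytokine receptors, Kit, Flt3, Csf1r, Csf2ra, Csf2rb, Csf3r, Il3ra, Il10ra and Epor, was followed in haemogenic endothelium of the mouse, an endothelium that gives rise to blood. They were chosen by name, with earlier results of these data known, and all 9 were found among the 41128 genes of the deposited tables. Of these 9 genes, 8 passed the filter on low counts and were among the 15347 genes tested, while Flt3 did not. The stem cell line, iSox7, derives from Ainv18 and carries Sox7 under control of doxycycline (Dox). From its embryoid bodies FLK1-positive cells were isolated at day 3.5, grown for 48 h in liquid blast medium, and then kept with 1 µg/ml Dox or without it for 6, 12 or 24 h. Each of these 6 groups had 2 libraries, and untreated cells carried the inducible gene too. Cells without the inducible Sox7 that received Dox are not among the libraries, so an effect of Dox itself and of induced SOX7 cannot be told apart. The labels name VEGF and IL6 as cytokines added to the medium, beside serum and a conditioned medium, and name no ligand of the 9 receptors. The labels do not tell whether the 2 replicates came from separate cultures, so the p-values cover the spread between these libraries only, which may be technical.

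Cytokine receptors pass signals for survival, division and maturation to blood cells and their progenitors. The class I receptors among the 9 genes (Csf2ra, Csf2rb, Il3ra, Csf3r and Epor) and the class II receptor gene Il10ra encode chains without a kinase of their own, which signal through JAK kinases and STAT factors. Csf2rb encodes the common beta chain shared by the receptors of GM-CSF, IL3 and IL5, which gain specificity from alpha chains such as those of Csf2ra and Il3ra. Kit, Flt3 and Csf1r encode type III receptor tyrosine kinases, which bind stem cell factor, FLT3 ligand and M-CSF and carry their own kinase domain. Kit is known as a marker of progenitors and of haemogenic endothelium, Csf1r of macrophages, Csf3r of granulocytes, and Epor of erythroid cells.

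Total counts per library ranged from 13485804 to 35250074, and each group had a shallow and a deep library. Sox7 stood at 52.1 to 81.7 CPM (read counts scaled to a common library size) in the 6 untreated libraries and at 313.7 to 379 CPM in the 6 Dox libraries. All 10 endothelial markers listed were tested, and their summed level was 2402 to 3260 CPM over the 12 libraries. Markers of smooth muscle and mesenchyme were also present, at a summed 6265 to 8966 CPM. Blood markers such as Ptprc summed to 128 to 258 CPM, and of the lymphocyte markers 0 of 5 passed the filter.

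The value of Csf2rb has to be read with its neighbour Csf2rb2, which encodes a second, IL3-specific beta chain of the mouse. Over 2628 aligned coding positions of the GENCODE M21 transcripts Csf2rb-201 and Csf2rb2-201, 95.2% were identical, and the longest identical run was 242 bases. Reads were 75 bases long, and 9.97% of the distinct 75-base stretches of Csf2rb transcripts also occurred in Csf2rb2. The first pair of stretches below comes from exon 7 (GRCm38 chr15:78341391-78341465, plus strand, for Csf2rb and chr15:78291844-78291918, minus strand, for Csf2rb2). It has 0 differences, so a read from it cannot be assigned. The second pair comes from exon 4 (chr15:78338905-78338979 and chr15:78294352-78294426, same strands) and was the most different 75-base stretch within an exon. Its 14 differing bases are in capitals, and the stretches show why most but not all reads of these genes can be told apart.
Csf2rb, exon 7: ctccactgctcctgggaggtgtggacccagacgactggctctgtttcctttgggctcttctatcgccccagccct
Csf2rb2, exon 7: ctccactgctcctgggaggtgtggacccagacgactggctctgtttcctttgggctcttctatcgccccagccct
Csf2rb, exon 4: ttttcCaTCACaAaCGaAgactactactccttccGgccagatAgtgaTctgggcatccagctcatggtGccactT
Csf2rb2, exon 4: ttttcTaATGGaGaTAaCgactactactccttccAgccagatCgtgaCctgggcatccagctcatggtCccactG

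After 24 h of Dox, 6 of the 8 tested receptor genes were lower and 0 were higher, where 11% of all 15347 tested genes were called, 6.52% lower and 4.5% higher. Il10ra fell to 16.7% of its untreated level, Csf3r to 30.9%, Csf2rb to 39.5%, Csf1r to 43.8%, Epor to 58.9% and Kit to 65.9%, and the alpha chain genes Il3ra and Csf2ra were not called. Without untreated replicate 1 of 24 h, a library with an isolated high Kit value, 4 of the 8 were lower, since Kit and Csf3r were no longer called, and the same 2 genes lost their calls without Dox replicate 1 of 24 h. The median log2 fold change of the 8 genes was -0.98, against -0.01 for all tested genes. At 6 h 1 of the 8 was called, Csf2rb, with 1.54% of all genes called (0.717% lower and 0.821% higher), and at 12 h again 1 of the 8, Csf2rb, with 6.76% of all genes called (3.51% lower and 3.26% higher). Genes were called at an adjusted p under 0.05 in the quasi-likelihood test of edgeR, adjusted by Benjamini and Hochberg's method over all tested genes, and errors of log2 fold changes are SE throughout. In bulk libraries such as these, fewer cells of a type and less RNA per cell cannot be told apart.

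**Figure D1:**
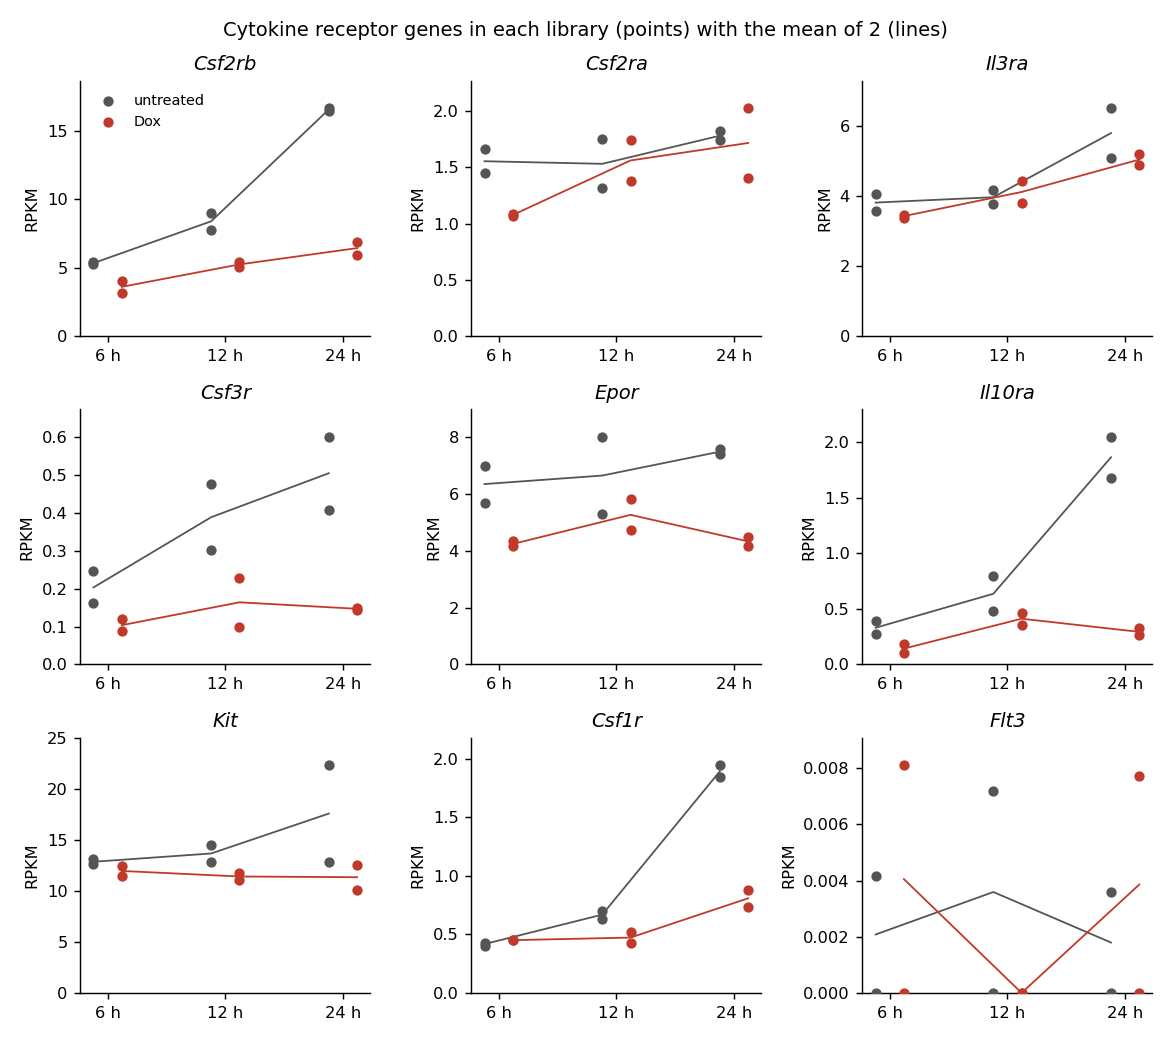
RPKM (reads scaled to gene length and library size) of each receptor gene by hour, 1 point a library, untreated in grey and Dox in red, with lines through the means of 2 libraries. Untreated Csf2rb, Csf1r and Il10ra climb to 24 h, and their Dox points of 24 h lie below them; the Kit point of 22.4 RPKM stands alone, and Flt3 never passes 0.00811 RPKM.

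Csf2rb (ENSMUSG00000071713, chromosome 15, 78325990 to 78351000, plus strand) was called at all 3 hours. Without Dox it stood at 5.40 and 5.25 RPKM at 6 h, 8.99 and 7.77 RPKM at 12 h, and 16.5 and 16.6 RPKM at 24 h. With Dox it stood at 4.03 and 3.15 RPKM at 6 h, 5.05 and 5.40 RPKM at 12 h, and 6.89 and 5.95 RPKM at 24 h. Both Dox libraries were below both untreated libraries at each hour, and the gap was widest at 24 h. The log2 fold changes were -0.58 ± 0.10 (adjusted p = 0.0011), -0.68 ± 0.09 (adjusted p = 1.2e-05) and -1.34 ± 0.09 (adjusted p = 2.2e-12). The 12 h and 24 h calls were kept in all 13 alternative fits. At 6 h the value was -0.39 when Dox replicate 2 was left out (adjusted p = 0.23) and -0.56 when untreated replicate 1 was (adjusted p = 0.057), and limma-trend on RPKM values did not call it at either pseudocount (adjusted p = 0.085 and 0.11).

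Csf2rb2 (chromosome 15, 78282517 to 78305603, minus strand), the partner chain gene, moved the same way at a lower level. Untreated libraries held 2.23 and 1.73 RPKM at 6 h, 3.48 and 2.86 RPKM at 12 h, and 6.20 and 6.00 RPKM at 24 h. Dox libraries held 1.43 and 1.53 RPKM at 6 h, 2.02 and 1.95 RPKM at 12 h, and 2.81 and 3.23 RPKM at 24 h. The libraries of Dox and untreated cells did not overlap at any hour. The gene was called at 12 h (-0.65 ± 0.13, adjusted p = 0.0013) and at 24 h (-1.01 ± 0.12, adjusted p = 1.4e-07), and not at 6 h (-0.43 ± 0.14, adjusted p = 0.17). Since part of the reads of both beta chain genes could come from either, their agreement is not independent.

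Csf2ra (chromosome 19, 61224402 to 61228418, minus strand), which encodes the alpha chain of the GM-CSF receptor, did not separate by treatment at 24 h. Its levels were 1.74 and 1.82 RPKM without Dox and 2.02 and 1.41 RPKM with Dox, so the untreated values lay between the Dox values. The log2 fold change was 0.004 ± 0.23 (adjusted p = 0.99). At 6 h the libraries did not overlap, with 1.45 and 1.66 RPKM without Dox and 1.09 and 1.06 RPKM with Dox, but the gene was not called (-0.49 ± 0.26, adjusted p = 0.53). With 32 to 125 reads a library, the SE of Csf2ra was more than that of Csf2rb in every comparison, so smaller effects were not detectable at this depth.

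Il3ra (chromosome 14, 14346495 to 14355490, plus strand), the alpha chain of the IL3 receptor, was not called at any hour. Its untreated levels were 3.57 and 4.06 RPKM at 6 h, 4.17 and 3.76 RPKM at 12 h, and 6.51 and 5.09 RPKM at 24 h. Its Dox levels were 3.38 and 3.47 RPKM at 6 h, 4.43 and 3.803 RPKM at 12 h, and 4.90 and 5.19 RPKM at 24 h. The groups overlapped at 12 h and at 24 h, and the log2 fold changes were -0.11 ± 0.18, 0.09 ± 0.16 and -0.16 ± 0.16 (adjusted p = 0.92, 0.83 and 0.63).

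The balance between beta and alpha chain transcripts can be read within each library, free of the scaling between libraries. In untreated cells the RPKM ratio of Csf2rb to Csf2ra was 3.72 and 3.17 at 6 h, 5.13 and 5.92 at 12 h, and 9.46 and 9.13 at 24 h. In Dox cells it was 3.70 and 2.96 at 6 h, 3.65 and 3.11 at 12 h, and 3.40 and 4.22 at 24 h. The untreated ratio thus climbed with time, while all 6 Dox ratios lay within 2.96 to 4.22. The ratio of Csf2rb to Il3ra went from 1.51 and 1.29 at 6 h to 2.53 and 3.27 at 24 h without Dox, and was 1.41 and 1.15 at 24 h with Dox. The ratio of Csf2rb to Csf2rb2 was 2.66 and 2.77 at 24 h without Dox and 2.45 and 1.84 with Dox. These ratios were not tested.

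**Figure D2:**
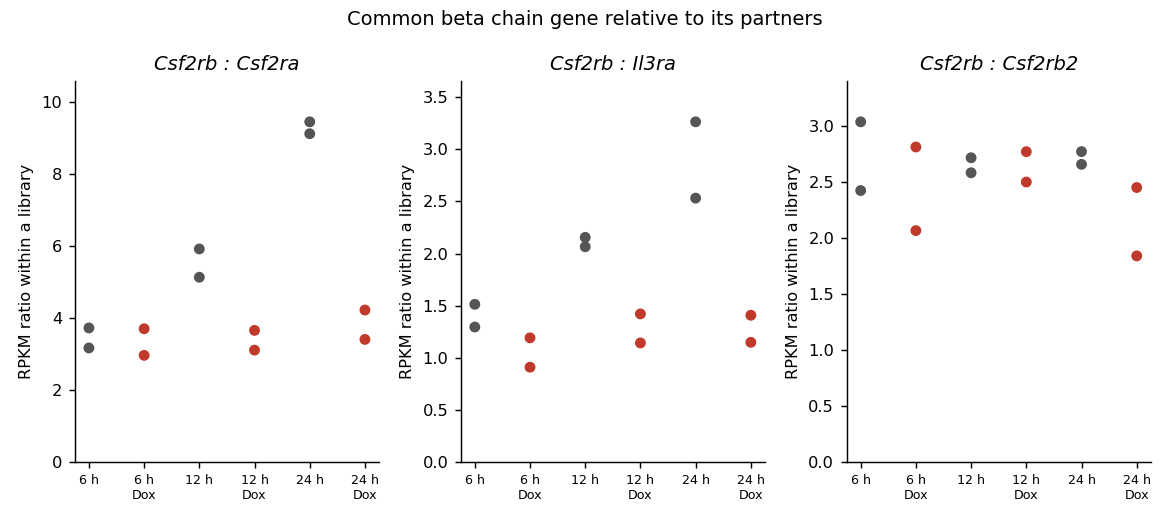
RPKM of Csf2rb divided by that of Csf2ra, Il3ra or Csf2rb2 in each library (grey untreated, red Dox; 1 point a library). The Csf2rb to Csf2ra ratio reaches 9.46 and 9.13 in untreated libraries of 24 h, while Dox libraries stay between 2.96 and 4.22.

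Csf3r (ENSMUSG00000028859, chromosome 4, 126024550 to 126044440, plus strand), the G-CSF receptor of granulocytes, was the scarcest of the 8 tested receptor genes, with 5 to 53 reads a library. Of its distinct 75-base stretches, 3.38% also occur in transcripts of other genes on either strand, whose part in its counts was not tested. At 24 h Csf3r stood at 0.601 and 0.409 RPKM without Dox and at 0.149 and 0.144 RPKM with Dox. The Dox libraries were also below the untreated ones at 6 h (0.161 and 0.246 against 0.0872 and 0.120 RPKM) and at 12 h (0.476 and 0.301 against 0.229 and 0.0990 RPKM). The log2 fold changes were -0.81 ± 0.53 and -1.01 ± 0.42 at 6 h and 12 h, not called (adjusted p = 0.68 and 0.15), and -1.70 ± 0.43 at 24 h (adjusted p = 0.0069). Leaving out untreated replicate 1 of 24 h ended the call at -1.45 (adjusted p = 0.073), and so did leaving out Dox replicate 1, at -1.71 (adjusted p = 0.074).

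Epor (ENSMUSG00000006235, chromosome 9, 21958899 to 21963576, minus strand) encodes the erythropoietin receptor, on which the maturation of red cell precursors depends. Without Dox its level was 7.01 and 5.70 RPKM at 6 h, 8.02 and 5.29 RPKM at 12 h, and 7.58 and 7.41 RPKM at 24 h. With Dox it was 4.33 and 4.16 RPKM at 6 h, 5.82 and 4.72 RPKM at 12 h, and 4.50 and 4.17 RPKM at 24 h. The groups were apart at 6 h and 24 h and overlapped at 12 h, where both untreated libraries differed widely. By 24 h the log2 value was -0.76 ± 0.16 (adjusted p = 0.00074), kept in all 13 alternative fits. At 6 h it was -0.59 ± 0.16, just short of the threshold (adjusted p = 0.054), and at 12 h -0.26 ± 0.15 (adjusted p = 0.37). The 12 h value rested on the spread of the untreated pair, at 0.01 without untreated replicate 1 and -0.57 without replicate 2 (adjusted p = 0.98 and 0.043). The 6 h value passed the threshold without a filter (adjusted p = 0.0023) and with a fit on the 6 h libraries alone (adjusted p = 0.020).

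Il10ra (ENSMUSG00000032089, chromosome 9, 45253837 to 45269149, minus strand) encodes the ligand-binding chain for the anti-inflammatory cytokine IL10 and had the largest fall of the 8 genes at 24 h. Its untreated levels were 0.388 and 0.273 RPKM at 6 h, 0.793 and 0.478 RPKM at 12 h, and 2.05 and 1.68 RPKM at 24 h. With Dox they were 0.180 and 0.105 RPKM at 6 h, 0.465 and 0.358 RPKM at 12 h, and 0.325 and 0.261 RPKM at 24 h. Dox libraries were lower at each hour, and at 24 h the untreated values were several times the Dox values. The log2 fold change was -1.36 ± 0.42 at 6 h (adjusted p = 0.12), -0.49 ± 0.29 at 12 h (adjusted p = 0.38) and -2.59 ± 0.28 at 24 h (adjusted p = 5e-08). The 24 h call was kept in all 13 alternative fits, although with limma-trend on log2(RPKM + 1) the value shrank to -1.14. Its partner chain gene Il10rb was not called (-0.27 ± 0.10 at 24 h, adjusted p = 0.096), at 5.23 and 5.26 RPKM without Dox and 4.44 and 4.12 RPKM with Dox.

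**Figure D3:**
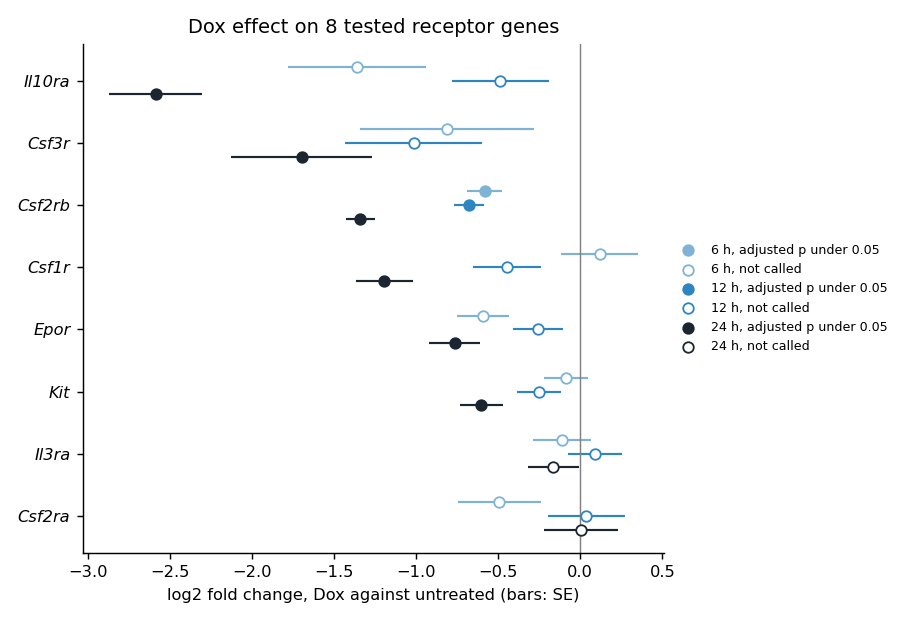
Log2 fold change of Dox against untreated cells at 6, 12 and 24 h for the 8 tested receptor genes, with bars of 1 SE; filled points are called at an adjusted p under 0.05. Filled points at 24 h run from -0.60 for Kit to -2.59 for Il10ra, and Csf2ra and Il3ra have unfilled points at all 3 hours.

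Csf1r (ENSMUSG00000024621), the M-CSF receptor of macrophages, was at nearly the same level in all 4 libraries of 6 h. It stood at 0.430 and 0.405 RPKM without Dox and at 0.451 and 0.450 RPKM with Dox. By 12 h it stood at 0.703 and 0.634 RPKM without Dox and 0.518 and 0.427 RPKM with Dox. By 24 h the untreated libraries held 1.84 and 1.94 RPKM and the Dox libraries 0.883 and 0.734 RPKM. The Dox libraries lay above the untreated ones at 6 h and below them at 12 h and 24 h. The log2 fold changes were 0.12 ± 0.23, -0.45 ± 0.20 and -1.19 ± 0.17 (adjusted p = 0.94, 0.21 and 6.8e-06). The 24 h call was kept in all 13 alternative fits. Of the 75-base stretches of Csf1r transcripts, 15.9% lie opposite exons of Hmgxb3, and the strand setting of the authors' counting is not given in the sources used here. Hmgxb3 itself was not called at 24 h (0.12 ± 0.07, adjusted p = 0.31), at 12.0 and 13.2 RPKM without Dox and 13.5 and 13.9 RPKM with Dox; its part in the Csf1r counts was not tested.

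Kit (ENSMUSG00000005672, chromosome 5, 75574916 to 75656722, plus strand), the receptor for stem cell factor, had the highest mean RPKM of the 9 genes in every group, although in untreated replicate 2 of 24 h Csf2rb was above it (16.6 against 12.9 RPKM). Without Dox it stood at 12.6 and 13.1 RPKM at 6 h, 14.5 and 12.9 RPKM at 12 h, and 22.4 and 12.9 RPKM at 24 h. With Dox it stood at 12.4 and 11.5 RPKM at 6 h, 11.8 and 11.1 RPKM at 12 h, and 10.1 and 12.6 RPKM at 24 h. All 6 Dox values thus lay within 10.1 to 12.6 RPKM, and 1 untreated library of 24 h, replicate 1, lay far above the other 11. The fold change of Kit at 24 h was -0.60 ± 0.13 on the log2 scale (adjusted p = 0.0019), but without that library it was -0.18 (adjusted p = 0.36). Leaving out Dox replicate 1 also ended the call (-0.43, adjusted p = 0.094), as did DESeq2 (-0.61, adjusted p = 0.12) and limma-trend on RPKM values at either pseudocount (adjusted p = 0.12 for both). At 6 h and 12 h Kit was not called (-0.09 ± 0.13 and -0.25 ± 0.13, adjusted p = 0.92 and 0.30). The 12 h value passed the threshold without a filter (-0.26, adjusted p = 0.0064) and with a fit on the 12 h libraries alone (-0.25, adjusted p = 0.031). Both Dox libraries were below both untreated libraries at each hour.

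No other well-covered gene differed as much between these replicates. Kit stood at 141.8 CPM in untreated replicate 1 and at 81.8 CPM in replicate 2 of 24 h. Of 11087 genes with at least 5 CPM in both libraries, 1, Kit itself, had a gap of that size in either direction. This comparison was made after the value was seen.

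**Figure D4:**
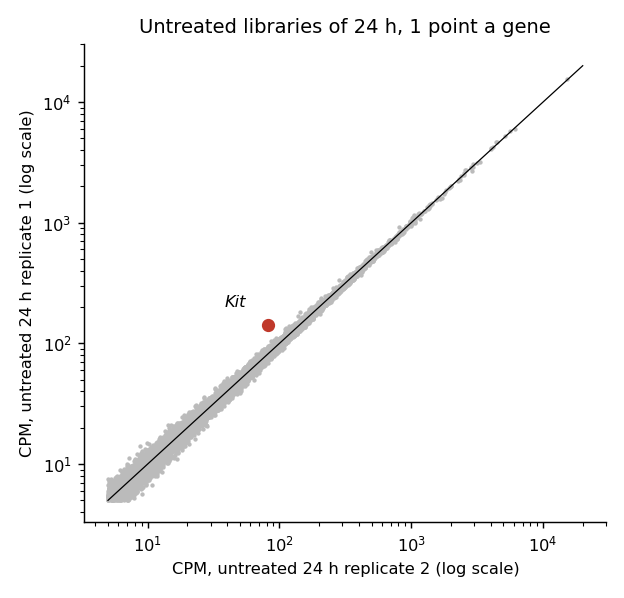
CPM in both untreated libraries of 24 h on log axes, 1 point for each of 11087 genes with at least 5 CPM in both; the line marks equal values. Kit, in red at 141.8 and 81.8 CPM, lies away from the narrow cloud of all other genes.

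Flt3 (ENSMUSG00000042817, chromosome 5, 147330741 to 147400489, minus strand), a receptor of lymphoid and myeloid progenitors, was all but absent. It had 7 reads in all 12 libraries together, with 0 to 2 reads in each. These reads fell in 3 untreated and 2 Dox libraries, so no comparison was possible at this depth.

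The order of the 9 genes by RPKM changed with time and with Dox. In untreated cells of 6 h it ran from Kit (mean 12.9 RPKM) through Epor (6.36), Csf2rb (5.32), Il3ra (3.81), Csf2ra (1.55), Csf1r (0.417), Il10ra (0.330) and Csf3r (0.203) to Flt3, with no overlap of libraries between neighbours. In untreated cells of 24 h Csf2rb (16.6 RPKM) had come up to Kit (17.6 RPKM), and their libraries overlapped. Csf1r (1.89), Il10ra (1.86) and Csf2ra (1.78 RPKM) followed with overlapping neighbours after Epor (7.50) and Il3ra (5.80). With 24 h of Dox the order was Kit (11.4), Csf2rb (6.42), Il3ra (5.04), Epor (4.34), Csf2ra (1.72), Csf1r (0.808), Il10ra (0.293) and Csf3r (0.147 RPKM), without overlap between neighbours. Il3ra was above Epor there and below it in the other 5 groups.

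In untreated cells 6 of the 8 tested genes were higher at 24 h than at 6 h, beside 40.9% of all genes called, 21.3% higher and 19.6% lower, in that comparison. Il10ra rose by 2.41 ± 0.28, Csf1r by 2.18 ± 0.19 and Csf2rb by 1.64 ± 0.09 on the log2 scale (adjusted p = 4.2e-08, 2.5e-10 and 1.5e-14). Csf3r (1.33 ± 0.42, adjusted p = 0.011), Il3ra (0.59 ± 0.16, adjusted p = 0.0045) and Kit (0.42 ± 0.13, adjusted p = 0.011) also rose, and Epor (0.21 ± 0.15) and Csf2ra (0.23 ± 0.23) were not called. Without untreated replicate 1 of 24 h the value of Kit was 0.0056 (adjusted p = 0.97), that of Csf3r 1.09 (adjusted p = 0.081) and that of Il3ra 0.44 (adjusted p = 0.066). Without untreated replicate 1 of 6 h the calls of the same 3 genes were lost as well, with adjusted p = 0.10 for Kit, 0.21 for Csf3r and 0.11 for Il3ra.

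Under Dox 5 of the 8 were higher at 24 h than at 6 h, beside 39.3% of all genes called, 19.4% higher and 19.9% lower. Csf2rb (0.88 ± 0.10, adjusted p = 5.5e-08), Csf1r (0.86 ± 0.21, adjusted p = 0.0013), Csf2ra (0.72 ± 0.25, adjusted p = 0.020), Il3ra (0.54 ± 0.17, adjusted p = 0.011) and Il10ra (1.18 ± 0.42, adjusted p = 0.027) rose. Kit (-0.09 ± 0.14), Epor (0.04 ± 0.17) and Csf3r (0.44 ± 0.55) were not called. Without Dox replicate 1 of 24 h the values of Csf2ra and Il10ra were 0.39 (adjusted p = 0.38) and 0.97 (adjusted p = 0.21). Il10ra was not called with limma-trend either (0.71 and 0.18 for pseudocounts 0.1 and 1, adjusted p = 0.063 and 0.20) or in a fit of the compared groups alone (adjusted p = 0.073), and DESeq2 did not call Csf2ra (adjusted p = 0.065). Without Dox replicate 2 of 6 h they were 0.70 (adjusted p = 0.13) and 0.74 (adjusted p = 0.35), that of Il3ra was 0.56 (adjusted p = 0.071), and without Dox replicate 1 of 6 h Csf2ra stood at 0.74 (adjusted p = 0.052). Whether any gene rose less under Dox than without it over the whole course was not tested, but steps of it were.

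The effect of Dox grew between 12 h and 24 h for 2 of the 8 genes by the test of the difference itself, beside 1.21% of all genes called, 1.02% lower and 0.189% higher. For Il10ra the effect at 24 h was lower than at 12 h by a log2 difference of -2.10 ± 0.42 (adjusted p = 0.0052), and for Csf2rb by -0.66 ± 0.13 (adjusted p = 0.0045). Csf1r (-0.74 ± 0.27, adjusted p = 0.24), Csf3r (-0.68 ± 0.61, adjusted p = 0.76), Epor (-0.51 ± 0.22, adjusted p = 0.36) and Kit (-0.35 ± 0.19, adjusted p = 0.52) were not called. Epor was called without untreated replicate 1 of 12 h (-0.78, adjusted p = 0.048). Kit was at -0.73 without untreated replicate 2 of 24 h (adjusted p = 0.0037) and at 0.07 without replicate 1 (adjusted p = 0.94). Without untreated replicate 2 of 12 h both calls were lost, with -1.69 (adjusted p = 0.096) for Il10ra and -0.55 (adjusted p = 0.081) for Csf2rb. Without Dox replicate 1 of 12 h that of Il10ra was lost (-1.84, adjusted p = 0.17). With limma-trend, Csf2rb was not called at either pseudocount (adjusted p = 0.19 for 0.1 and 0.096 for 1), and Il10ra was not called at 0.1 (-1.82, adjusted p = 0.12), while Csf1r was called at 1 (-0.50, adjusted p = 0.050 after rounding). Between 6 h and 12 h the effect differed for 0 of the 8 genes in edgeR, beside 0.417% of all genes (0.222% lower and 0.195% higher). Of the 8, 0 had an unadjusted p under 0.05, and DESeq2 called 0 too.

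Most ligand genes of the receptors had few reads or none. Of 10 ligand genes, 4 passed the filter and 0 of these were called at any hour. Csf1, which encodes M-CSF, was abundant at 45.3 to 61.4 RPKM over the 12 libraries and differed by 0.06 ± 0.07 on the log2 scale at 24 h (adjusted p = 0.68). Kitl, which encodes stem cell factor, was at 9.68 to 13.2 RPKM and missed the threshold at 24 h (0.22 ± 0.07, adjusted p = 0.053). Flt3l and Il34 were scarce, at 0.213 to 0.867 and 0.0321 to 0.247 RPKM, and were not called at 24 h (adjusted p = 0.77 and 0.61). Csf2, Il3 and Epo had 0 reads in all 12 libraries, which allows up to 0.011 CPM over the summed total of 273497823 counts, counting error only. Csf3, Il5 and Il10 had at most 2 reads in a library. Il5ra, the third alpha chain that pairs with Csf2rb, had at most 4 reads in a library and was not tested.

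Of the 22 tested genes for other haematopoietic cytokine receptors, 6 were lower, 2 were higher and 14 were not called at 24 h, with a median log2 fold change of -0.10. Among all tested genes 6.52% were lower and 4.5% higher at that hour. Tnfrsf1b, a receptor for TNF, fell (-1.26 ± 0.17, adjusted p = 1.3e-06), as did Il7r, known from lymphoid cells (-2.24 ± 0.42, adjusted p = 0.00033). Both genes that rose had also been called higher at 6 h and 12 h. Il9r rose by 0.98 ± 0.26, 1.66 ± 0.24 and 1.94 ± 0.24 on the log2 scale (adjusted p = 0.048, 2e-05 and 6.8e-07). It stood at 0.372 and 0.248 RPKM at 24 h without Dox and at 1.07 and 1.17 RPKM with Dox. Lifr, which encodes the receptor for leukaemia inhibitory factor, rose by 0.21 ± 0.05, 0.28 ± 0.05 and 0.60 ± 0.05 (adjusted p = 0.023, 0.00047 and 4.9e-10), to 37.5 and 38.1 RPKM at 24 h from 24.3 and 26.0 RPKM without Dox.

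Genes that act downstream of the receptors were called in both directions, but at different hours. Of 9 JAK and STAT genes, 3 were called at 12 h, where Jak3 (0.28 ± 0.08), Stat3 (0.17 ± 0.05) and Stat5b (0.28 ± 0.07) were higher (adjusted p = 0.040, 0.037 and 0.0083). Among all tested genes 3.26% were higher and 3.51% lower at 12 h. The 24 h result of the JAK and STAT list is not reported here. The heading SH2 adaptors and kinases is loose, as its 14 genes also encode other signalling proteins. At 12 h 2 of these 14 were lower and 0 higher. At 24 h 8 were lower and 0 higher, beside 6.52% and 4.5% of all tested genes, with a median of -0.55. Syk (-0.73 ± 0.10), Lyn (-0.42 ± 0.07), Dok2 (-1.21 ± 0.19) and Inpp5d (-0.51 ± 0.09) had the smallest p-values (adjusted p = 2.6e-06, 2.8e-05, 3.6e-05 and 7.6e-05).

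Of 12 genes listed as inhibitors of receptor signalling, the phosphatase gene Ptpn6 (-0.82 ± 0.12, adjusted p = 9.7e-06) and Socs3 (-0.30 ± 0.09, adjusted p = 0.022) were lower at 24 h, and 10 were not called. The shares of all tested genes at 24 h were 6.52% lower and 4.5% higher. Of 9 tested cytokine response targets 4 were lower, namely Ccnd3 (-0.29 ± 0.05), Pim2 (-0.66 ± 0.14), Pim1 (-0.28 ± 0.07) and Bcl6 (-0.99 ± 0.25), with adjusted p = 9.5e-05, 0.0018, 0.0057 and 0.0070. Id1 was higher (0.24 ± 0.07, adjusted p = 0.021). Of the other type III receptor kinase genes, Pdgfrb was lower (-0.18 ± 0.05, adjusted p = 0.016) and Pdgfra was not called.

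Of 10 transcription factor genes known to act on receptor genes, 6 were lower and 0 higher at 6 h, beside 0.717% of all genes lower. At 24 h 7 were lower and 1 higher, beside 6.52% and 4.5% of all genes. At 6 h 1 of the 8 tested receptor genes was called. The median log2 fold changes at 6 h were nevertheless alike, -0.49 for the factor genes and -0.54 for the receptor genes. Which of them fell first was not tested. Spi1, whose product PU.1 activates myeloid receptor genes, had log2 fold changes of -1.19 ± 0.20 at 6 h and -1.82 ± 0.17 at 24 h (adjusted p = 0.00050 and 1.5e-09). Gata1, which activates Epor in erythroid cells, had -0.95 ± 0.16 at 6 h, -0.52 ± 0.15 at 12 h and -0.95 ± 0.15 at 24 h (adjusted p = 0.00049, 0.031 and 2.1e-05). Cebpb (-0.79 ± 0.09) and Myb (-0.66 ± 0.11) were lower at 24 h as well (adjusted p = 2.6e-07 and 8.6e-05), and Gata2 was higher (0.53 ± 0.09, adjusted p = 0.00013).

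**Figure D5:**
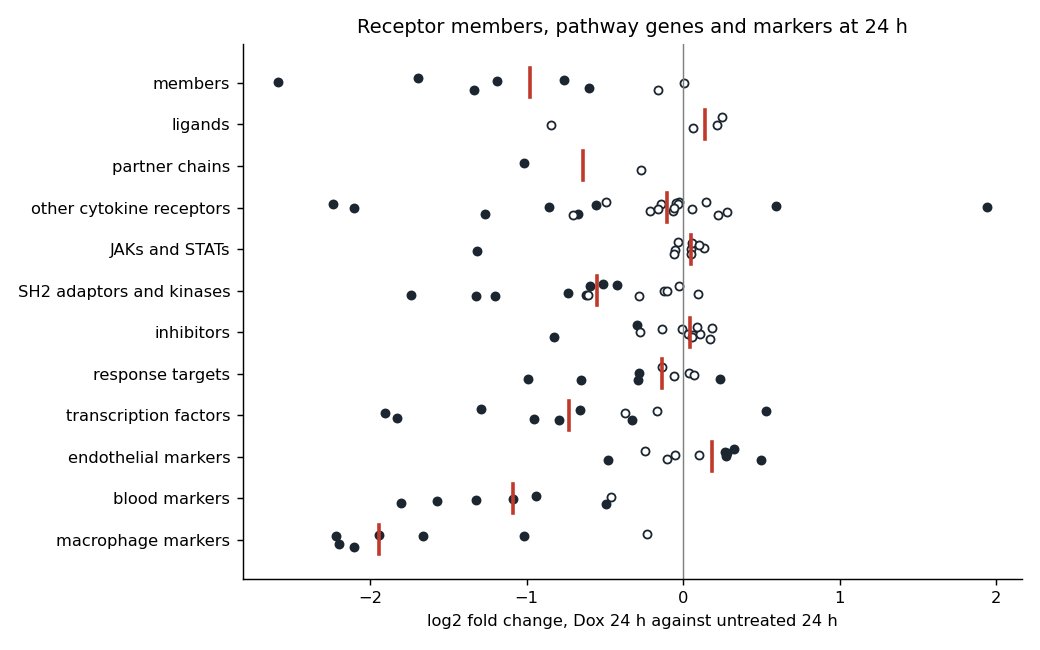
Log2 fold change of Dox against untreated cells at 24 h for the tested genes of each list, 1 point a gene, filled where called at an adjusted p under 0.05, with the median of each list as a red bar. The receptor members have a median of -0.98, macrophage markers -1.94, blood markers -1.09 and endothelial markers 0.18.

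Promoters in RefSeq's table (GRCm38.p6, from 250 bases before to 50 bases after the start site) were at hand for 6 of the 9 genes, Csf2ra, Csf3r, Il3ra, Epor, Kit and Flt3, and for Csf2rb2. They were searched on both strands for letters bound by known factor families, namely AGATAA for GATA-binding proteins, GAGGAAG for PU.1 and related ETS factors, TGTGGT for RUNX factors and AACAAT for SOX factors, which occur in 11.2%, 13.6%, 16.8% and 10.7% of all 32851 promoters of that length. The Epor, Csf3r and Csf2ra promoters are shown since the first 2 genes were lower at 24 h and the last was not called, with matches in capitals. Epor (chr9:21963527-21963826, minus strand) held the GATA letters on the opposite strand from 54 bases before the start site and the RUNX letters from 166 bases before it. Csf3r (chr4:126024409-126024708, plus strand) held the PU.1-type letters from 86 bases before the start site. Csf2ra (chr19:61228369-61228668, minus strand) held them at 2 overlapping places, from 14 and 8 bases before it, so a gene that was not called had them too. Kit and Csf2rb2 also held the PU.1-type letters, and Il3ra and Flt3 held none of the 4 motifs. A match describes these letters only and is not evidence of binding.
Epor promoter: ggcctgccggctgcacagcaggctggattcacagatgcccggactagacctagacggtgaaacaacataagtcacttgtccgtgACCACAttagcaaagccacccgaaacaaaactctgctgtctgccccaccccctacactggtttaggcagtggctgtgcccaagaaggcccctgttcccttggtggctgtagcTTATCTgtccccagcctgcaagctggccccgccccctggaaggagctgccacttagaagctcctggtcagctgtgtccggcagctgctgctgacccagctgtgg
Csf3r promoter: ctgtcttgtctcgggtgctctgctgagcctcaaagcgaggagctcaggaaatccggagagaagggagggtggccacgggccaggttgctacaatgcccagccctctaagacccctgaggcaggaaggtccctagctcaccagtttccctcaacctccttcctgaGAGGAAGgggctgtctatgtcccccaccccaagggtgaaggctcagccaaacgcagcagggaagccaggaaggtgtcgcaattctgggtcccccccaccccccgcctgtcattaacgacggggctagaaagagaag
Csf2ra promoter: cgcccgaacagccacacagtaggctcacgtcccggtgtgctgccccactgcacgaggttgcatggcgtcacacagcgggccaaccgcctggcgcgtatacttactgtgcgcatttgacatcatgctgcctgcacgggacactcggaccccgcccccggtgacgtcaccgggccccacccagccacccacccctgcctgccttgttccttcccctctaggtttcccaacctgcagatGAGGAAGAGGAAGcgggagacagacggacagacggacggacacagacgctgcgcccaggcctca

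Markers of blood cell types moved with the receptor genes at 24 h. Of 7 blood markers 6 were lower, of 7 tested macrophage markers 6, of 6 erythroid markers 6 and of 6 megakaryocyte markers 6, with 0 higher in each. Among all tested genes 6.52% were lower and 4.5% higher at 24 h. Macrophage markers summed to 88.1 and 83.3 CPM in untreated libraries of 24 h and to 40.1 and 37.1 CPM in Dox libraries, while at 6 h the sums were 53.3 and 49.4 against 50.2 and 55.5 CPM. Such a sum weighs abundant markers most. At 6 h both Dox libraries lay above both untreated ones for Mrc1 and below them for Cd68, Cx3cr1 and Cd14. The libraries overlapped for the other macrophage markers. Of the 7 tested macrophage markers, 1 was lower and 0 higher at 6 h, with a median log2 fold change of -0.29. At that hour 3 of 6 megakaryocyte markers were lower (median -0.41) and 2 of 6 erythroid markers (-0.32). Of 2 tested granulocyte markers 1 was lower (list median -0.75), and of 7 blood markers 0 were (list median -0.17). In each of these lists 0 were higher at 6 h, and 0.717% of all tested genes were lower. Granulocyte markers summed to 28.9 and 28.3 CPM in untreated libraries of 24 h, of which Mpo alone made 27.74 and 27.25 CPM. In Dox libraries of 24 h the list summed to 9.33 and 9.26 CPM, so its fall was mostly that of Mpo. Elane, Ly6g, S100a8 and S100a9 stayed under 0.1 CPM in every library. Markers of mast cells, which carry Kit, summed to 1.57 and 1.09 CPM in untreated libraries of 24 h and to 0.230 and 0.215 CPM in Dox libraries, and Fcer1a and Tpsb2 had 0 reads. Hdc was the single mast cell marker to pass the filter. Outside untreated cells of 24 h the whole list summed to at most 0.593 CPM. Hdc may thus have passed through that group alone, so no result is drawn from its comparison at 24 h. Endothelial markers were split at 24 h, with 5 of 10 called higher, 1 lower and 4 not called. Both Dox libraries lay above both untreated ones for Cdh5, Pecam1, Kdr, Tek, Tie1 and Esam. For Emcn, Eng, Erg and Cd34 they lay below. The part of these cell types in the receptor results was not tested.

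The genes whose log2 CPM followed each receptor gene most closely over the 12 libraries were searched among 11097 genes, as a description, since the libraries share hour and treatment. Csf2rb was followed most closely by Emilin2, Fmnl1 and Tbc1d2b (Pearson r = 0.992, 0.988 and 0.988), and Csf1r by Ifih1, Lcp1 and Cd47 (0.986, 0.984 and 0.983). Il10ra was closest to Sash3, Tmem119 and Prss35 (0.974, 0.969 and 0.967), and Csf3r to Acp5, Rgs10 and Dapp1 (0.946, 0.942 and 0.937). Epor was closest to the glycine transporter gene Slc6a9, to Gata1 and to Tdo2 (0.956, 0.953 and 0.952). Il3ra was closest to Abhd14b, Akt1s1 and Cdh1 (0.957, 0.955 and 0.952), and Csf2ra to Meis3, R3hdm4 and Ccdc55 (0.948, 0.910 and 0.894). For Kit, with its single high library, the closest were Anxa11, Slc25a39 and Tbc1d17 (0.885, 0.881 and 0.858). Among the receptor genes themselves, Csf2rb and Il10ra had r = 0.956 and Csf2rb and Csf1r r = 0.911, whereas Csf2ra and Kit had r = 0.129.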

How the data were processed

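RNA of 12 libraries was measured as single reads of 75 bases from a strand-specific kit, per the labels' protocols (200 ng of RNA, 14 cycles of amplification). The submitters' processing notes name the build GRCm38 and the tools edgeR 3.8.5, R 3.1.0, SAMtools 0.1.19, Bowtie2 2.21 and bcl2fastq 2.16.0.10. For the read counter, its strand setting and the annotation release, names were not given in the sources used here. Whole-number read counts for each of 41128 Ensembl genes were deposited by the authors, as were RPKM values for the same genes. RPKM is used here for levels and ratios, counts for tests.

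Samples were grouped by title. Counts were fitted in edgeR 4.0.16 (R 4.3.3) with filterByExpr (15347 genes kept), TMM scaling, 1 mean per group over all 12 libraries, the quasi-likelihood test, and Benjamini-Hochberg adjustment over all tested genes. CPM values use the effective library size. SE is the size of the log2 fold change over the square root of F. The fit was tested on simulated data. Replicates differed by more than counting noise (chi-square per degree of freedom 2.63 to 4.61) and were counted as separate. As alternatives, scaling by RLE or upper quartiles, no filter, 1 CPM in 4 libraries, a replicate block, DESeq2 1.42.0, limma-trend (limma 3.58.1) on log2(RPKM + 0.1) and log2(RPKM + 1), a fit of the compared groups alone, and leaving out each library were tried.

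Receptor genes and lists were chosen with earlier results of these data known. Named genes are the 9 receptors, their ligands and partner chains, up to 4 called genes of each list by adjusted p at 24 h, members against their list, and the 3 genes closest to each receptor by Pearson correlation of log2 CPM (prior count 1) over genes whose mean log2 CPM was 1 or more. Where a list has at most 5 called genes, all are named, apart from a result that is not reported here. Transcripts and exons are those of GENCODE M21 (GRCm38), and 75-base stretches were compared exactly.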

Additional observations from a re-analysis of the deposited data

Results flagged for a closer look

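Both Il10ra and Csf2rb had a Dox effect that differed between 12 h and 24 h by the interaction test in edgeR. Il10ra had a difference of -2.10 on the log2 scale between the effects at 24 h and 12 h, and Csf2rb one of -0.66, both towards a lower level under Dox at 24 h. Untreated Il10ra went from 0.793 and 0.478 RPKM at 12 h to 2.05 and 1.68 RPKM at 24 h, while its Dox libraries went from 0.465 and 0.358 to 0.325 and 0.261 RPKM. Untreated Csf2rb went from 8.99 and 7.77 to 16.5 and 16.6 RPKM, and its Dox libraries from 5.05 and 5.40 to 6.89 and 5.95 RPKM.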

How the results depend on the processing

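The 24 h calls of Csf2rb, Il10ra, Csf1r and Epor were kept under all 13 alternatives run for them. With limma-trend on log2(RPKM + 0.1) and log2(RPKM + 1), counts of genes called went to 78 and 67 genes at 6 h, 354 and 365 at 12 h, 4 and 1 for the difference between 6 h and 12 h, and 6 and 108 for that between 12 h and 24 h. Both limma fits called 0 receptor genes at 6 h, and the first called 0 for the difference between 12 h and 24 h. Without a filter 255 and 356 genes were called for these differences. That fit called 342 genes at 6 h, 3 of them receptor genes, and 1233 at 12 h, 2 of them receptor genes. A fit of the compared groups alone called 39 genes for the first difference. It called 243 genes at 6 h and 972 at 12 h, with 2 receptor genes at each of these hours.

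With the replicate number as a block, 2 receptor genes were called at 6 h (Epor joined, -0.55, adjusted p = 0.039), and the counts of genes called went to 249, 1071 and 1722 at 6, 12 and 24 h. Same-numbered libraries showed little shared deviation over all tested genes (correlations from -0.0351 to 0.0727). Counting noise of scarce genes draws such values towards 0, so they cannot tell whether the numbers pair the libraries.

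Leaving out 1 library gave 87 to 183 genes at 6 h, 404 to 747 at 12 h, 1065 to 1460 at 24 h, 12 to 179 and 73 to 257 for the differences, 4170 to 5388 for the untreated course and 3900 to 5298 for the Dox course. Receptor genes called then numbered 0 to 1, 1 to 2, 4 to 6, 0, 0 to 3, 3 to 6 and 2 to 5. The cause of these shifts was not tested.

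Sign changes were limited to values that were not called in the main edgeR fit. Of these, Epor at 12 h and Kit for the later difference were called under another alternative. Csf2ra at 24 h was -0.0029 without a filter, -0.01 with the block and with DESeq2, and -0.07 and -0.04 with limma. Epor over the Dox course was -0.0033 with the block. With 1 library left out, Csf2ra ran from -0.32 to 0.19 at 24 h, from -0.20 to 0.23 at 12 h and from -0.36 to 0.20 for the later difference. At 12 h Il3ra ran from -0.05 to 0.18 and Epor from -0.57 to 0.01. Csf2rb ran from -0.29 to 0.08 and Csf3r from -1.08 to 0.14 for the earlier difference. Csf3r ran from -1.01 to 0.19 and Kit from -0.73 to 0.07 for the later one. Over the Dox course Epor ran from -0.02 to 0.08 and Kit from -0.24 to 0.08. Depth limits Flt3 (0 to 2 reads a library), Csf3r (5 to 53), Il10ra (10 to 211), Csf1r (29 to 341) and Csf2ra (32 to 125).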
